A study of Mus musculus with 24 samples.

Results

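Transcripts of 2 protein families that act on the cytoskeleton of growing axons were followed in mouse brain: the 5 collapsin response mediator proteins (CRMPs; genes Crmp1, Dpysl2, Dpysl3, Dpysl4 and Dpysl5) and the 4 stathmins (Stmn1, Stmn2, Stmn3 and Stmn4). The 9 genes were taken by symbol from a table of 46078 Ensembl genes, and all 9 were among the 18267 genes that passed a filter on low values (a mean of at least 10). The 24 libraries came from brain of untreated C57BL/6N mice in 4 groups of 6: wild type (WT) at postnatal day 14 (P14), WT at P25, Shank2 knock-out (KO) at P14 and Shank2 KO at P25. Shank2 encodes a scaffold of the postsynaptic density of excitatory synapses. In each group, libraries 4 to 6 are marked as a 2nd batch in the labels, and libraries 1 to 3, which carry no mark, were taken as the first batch. The design text counts mice per group, and nothing states how the KO allele was made or whether littermates were used.

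CRMPs are cytosolic proteins that bind tubulin and actin regulators. They were found through the collapse of growth cones by semaphorin 3A (collapsin), which signals through neuropilin 1 and plexin A receptors to kinases such as Cdk5, Gsk3b and Fyn, and CRMPs are among their substrates. Dpysl2 (CRMP2) promotes axon growth by carrying tubulin to growing microtubule ends, Dpysl3 (CRMP4) and Dpysl5 (CRMP5) are strongly made in newborn and extending neurons, and Crmp1 and Dpysl4 (CRMP3) form mixed tetramers with the others. Stathmins bind tubulin dimers and favour the shortening of microtubules until kinases phosphorylate them. Stmn1 is the cytosolic form, made in dividing cells and young neurons; Stmn2 (SCG10), Stmn3 (SCLIP) and Stmn4 (RB3) carry a membrane anchor and are made mainly in neurons.

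The libraries did not all hold the same brain regions, and this touches every result below. Levels are deposited read counts divided by a size factor per library ("normalised read counts"). The libraries held 27552844 to 40787586 reads, and each member had at least 860 reads in every library, so counting error was small beside the spread between libraries. Emx2, a cortical transcription factor, was above 250 and Cbln3, a secreted protein of cerebellar granule cells, below 100 in 15 libraries, called forebrain-type here: P14 WT 1, 2, 4, 5 and 6, P14 KO 2 to 6, P25 WT 1 and 2, and P25 KO 1, 3 and 4. In 4 of these (P14 WT 5, P14 KO 4 and 6, P25 KO 4) Tbx21, a transcription factor of olfactory bulb mitral and tufted cells, was at 557 to 1392, against 1.70 to 10.1 in the other 11; they are called bulb-containing. Cbln3 was at 54064 to 61110 and Emx2 at 0 to 3.89 in P25 WT 4, 5 and 6 and P25 KO 5 and 6, so the label brain does not describe a forebrain there, and these 5 are called cerebellum-rich. The other 4 (P14 WT 3, P14 KO 1, P25 WT 3 and P25 KO 2) held Cbln3 at 2373 to 25148, and P25 WT 3 also held the pituitary transcript Gh at 72845. Shank2 had a median of 7815 in P14 WT, 3919 in P14 KO, 8930 in P25 WT and 4427 in P25 KO, with overlapping ranges at P14 (3932 to 12778 in WT and 1899 to 6458 in KO) and none at P25 (6382 to 13358 in WT and 2217 to 5153 in KO). The labels do not give the deleted part of the gene, so these totals are no full check of the genotype. In bulk RNA, fewer cells of a type and less RNA per cell cannot be told apart.

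In forebrain-type libraries, 4 of the 5 CRMPs and 2 of the 4 stathmins were lower at P25 than at P14. Of the 9 members, 6 passed the test and all 6 were lower: Dpysl5, Dpysl3, Crmp1, Stmn2, Stmn1 and Dpysl4. Among all genes tested in these 15 libraries, 5.61% passed in either direction and 3.04% were lower. The test was limma on log2(value + 1), with age and genotype as terms and Benjamini-Hochberg adjustment over all 18267 genes. No batch term was fitted, and the ages differed in batch. WT 4 to 6 and KO 4 to 6 at P14 were of the 2nd batch, and KO 4 alone at P25. All bulb-containing libraries were of the 2nd batch. Differences are P25 minus P14, with the standard error (SE) of limma. The median difference of the members was -0.50, beside -0.0016 for all genes tested.

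Dpysl5 (ENSMUSG00000029168; chromosome 5, 30711564 to 30799375, plus strand of GRCm38) was the member with the largest difference. It stood between 6289 and 11062 with a median of 8451 in the 10 P14 libraries. At P25 it was at 1611 in WT 1, 1960 in WT 2, 2736 in KO 1, 1956 in KO 3 and 4363 in KO 4. Every P25 library lay below every P14 library, and the highest of them was the bulb-containing one. The difference was -1.90 (SE 0.18, adjusted p = 1.31e-04), a 3.73-fold fall.

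Dpysl3 (ENSMUSG00000024501; chromosome 18, 43320984 to 43438286, minus strand) changed in much the same way. The P14 libraries ran from 5682 to 14940 with a median of 9700. The P25 values were 2268 in WT 1, 2803 in WT 2, 3574 in KO 1, 2682 in KO 3 and 4898 in KO 4. Again the ages did not overlap and the bulb-containing P25 library was the highest of its age. The fall was 3.22-fold (-1.69, SE 0.23, adjusted p = 1.00e-03).

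Crmp1 (ENSMUSG00000029121; chromosome 5, 37241940 to 37292133, plus strand), a mediator of semaphorin 3A signals, fell 1.91-fold (-0.93, SE 0.12, adjusted p = 6.92e-04). Its P14 values ran from 11035 to 20120 with a median of 15475. The 5 P25 values were 7611 in WT 1, 7975 in WT 2, 7594 in KO 1, 8364 in KO 3 and 10508 in KO 4. The ages were separate, with the highest P25 library close to the lowest P14 library; both are bulb-containing.

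Dpysl4 (ENSMUSG00000025478; chromosome 7, 139086001 to 139102704, plus strand) fell less. It was between 2793 and 4701 with a median of 4116 at P14. By P25 it stood at 2737 in WT 1, 2914 in WT 2, 3111 in KO 1, 3030 in KO 3 and 3032 in KO 4, a narrow range. The ages overlapped through 1 bulb-containing P14 library, WT 5. The difference was -0.45 (SE 0.10, adjusted p = 0.0224). Dpysl2 (ENSMUSG00000022048; chromosome 14, 66802864 to 66868688, minus strand), the tubulin carrier, did not pass: the difference was -0.26 (SE 0.12, adjusted p = 0.214). Its P14 values ran from 4769 to 8095 with a median of 5841, and its P25 values were 4943 in WT 1, 4866 in WT 2, 5540 in KO 1, 4620 in KO 3 and 5419 in KO 4. Of the 5 P25 libraries, KO 3 alone lay below the lowest P14 library.

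Among the stathmins, Stmn2 (ENSMUSG00000027500; chromosome 3, 8509360 to 8561606, plus strand), a protein of growth cones and regenerating axons, fell 1.82-fold (-0.86, SE 0.20, adjusted p = 0.0214). It ran from 16491 to 38746 at P14 with a median of 30958. Its P25 values were 14592 in WT 1, 16996 in WT 2, 16266 in KO 1, 14631 in KO 3 and 13032 in KO 4. WT 2 overlapped the lowest P14 library, and the other 4 lay below all of P14. Stmn1 (ENSMUSG00000028832; chromosome 4, 134468320 to 134473843, plus strand) fell 1.41-fold (-0.50, SE 0.10, adjusted p = 0.0131). It ran from 18822 to 28151 at P14 with a median of 21773, and was at 15456 in WT 1, 17576 in WT 2, 14121 in KO 1, 15909 in KO 3 and 14745 in KO 4 at P25, with no overlap. A microRNA gene, Gm23634, shares 66 exon bases with Stmn1 on the same strand and had a mean value of 1.90.

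The other 2 stathmins did not pass. Stmn3 (ENSMUSG00000027581; chromosome 2, 181306459 to 181314500, minus strand) was at 13021 to 23435 at P14, with a median of 21230. At P25 it was at 14742 in WT 1, 15703 in WT 2, 16249 in KO 1, 14291 in KO 3 and 14857 in KO 4, all within the P14 range (-0.32, SE 0.15, adjusted p = 0.234). Stmn4 (ENSMUSG00000022044; chromosome 14, 66344296 to 66361680, plus strand) was at 4955 to 10862 at P14, with a median of 9378. The P25 libraries held 7690 in WT 1, 7241 in WT 2, 7105 in KO 1, 7041 in KO 3 and 5356 in KO 4, also within the P14 range (-0.28, SE 0.18, adjusted p = 0.420). For both, the lowest P14 values were those of the 3 bulb-containing libraries.

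In all, 4 of 9 members (Crmp1, Dpysl3, Dpysl5 and Stmn1) had every P25 forebrain-type library below every P14 one, against 1.59% of all genes tested. Leaving out any of 3 P25 libraries took 2 members below the threshold: the adjusted p of Dpysl4 became 0.0609 and that of Stmn2 0.0616 without KO 3, 0.0822 and 0.0746 without WT 1, and 0.0653 and 0.0523 without WT 2. With WT libraries alone (5 against 2) 1 gene of all those tested passed (0.00547%), Dpysl5 (-2.22, adjusted p = 0.0425). With KO libraries alone (5 against 3) no member passed by limma, with adjusted p from 0.0739 for Crmp1 to 0.594 for Stmn3, and 5 genes did (0.0274%).

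**Figure D1:**
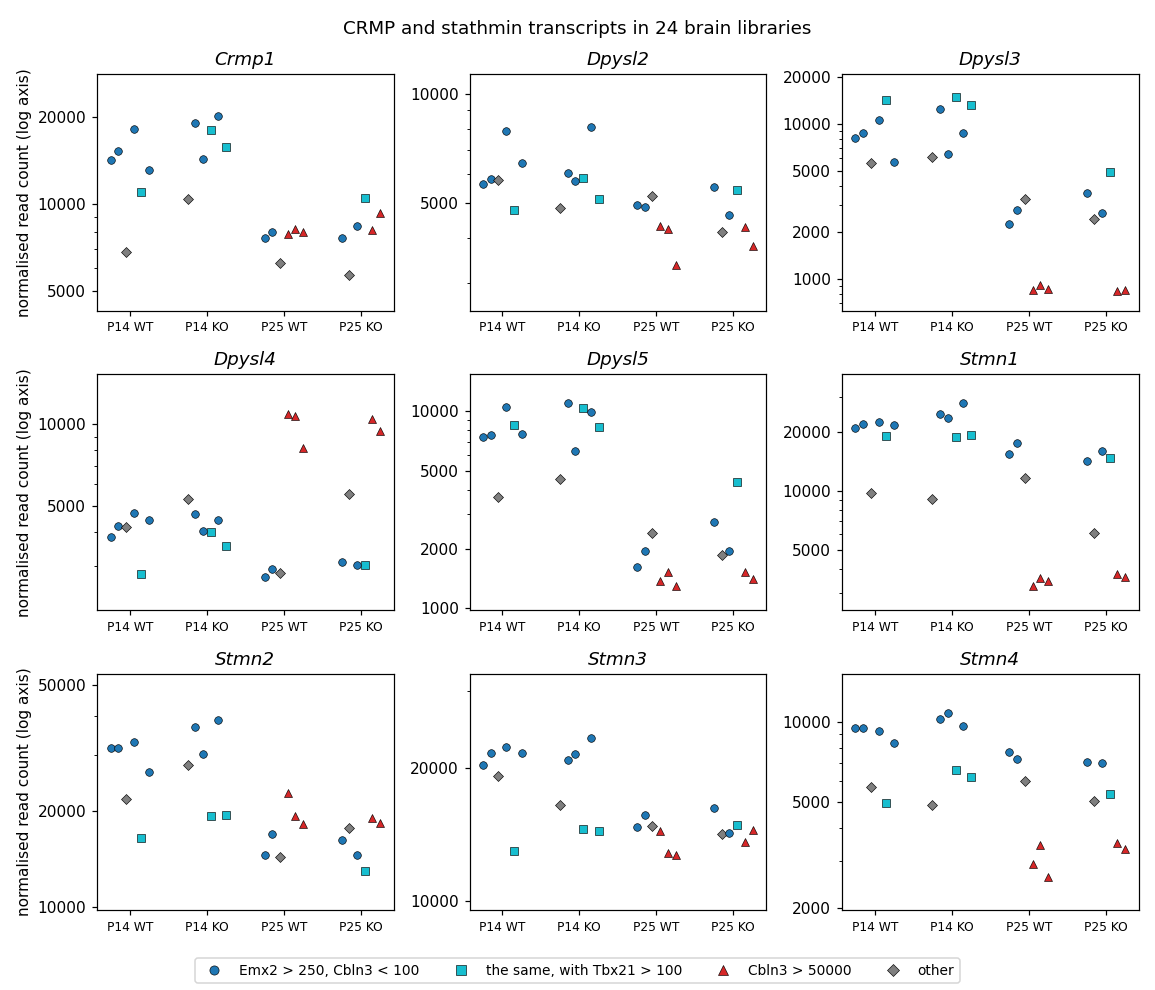
Normalised read count of each member (log axis) in each of the 24 libraries, by age and genotype, with libraries 1 to 6 from left to right in a group; blue circles are forebrain-type libraries, cyan squares the bulb-containing ones among them, red triangles cerebellum-rich libraries and grey diamonds the remaining 4. Dpysl5 lay at 6289 to 11062 in P14 and 1611 to 4363 in P25 forebrain-type libraries, while Dpysl4 was at 8161 to 10952 in the cerebellum-rich ones.

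The bulb-containing libraries stood apart for several members, as the plot of counts by group shows. At P14, Stmn2 was at 16491 to 19511 in the 3 of them and at 26564 to 38746 in the other 7. Stmn3 was at 13021 to 14569 against 20397 to 23435, and Stmn4 at 4955 to 6620 against 8328 to 10862. Dpysl3 went the other way, with 13290 to 14940 in the bulb-containing libraries and 5682 to 12551 in the others. Dcx, a microtubule protein of migrating neuroblasts, was at 10329 to 21816 against 2835 to 4215 in the same libraries, and Rbfox3, a marker of mature neurons, at 3250 to 5067 against 7416 to 9781. These ranges are a description: the libraries were told apart by Tbx21 after the values had been seen.

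Without the 4 bulb-containing libraries, all 9 members passed and all 9 were lower at P25 (7 P14 against 4 P25 libraries; 19.6% of all genes passed, 11% lower). No member's ages overlapped, against 8.36% of all genes with every P25 library below every P14 library. Dpysl5 fell 4.22-fold (-2.08, SE 0.17, adjusted p = 9.86e-05) and Dpysl3 3.05-fold (-1.61, SE 0.20). Stmn2 (-1.07, SE 0.10) and Crmp1 (-1.04, SE 0.11) each fell about as much as the other. A lower tier held Stmn1 (-0.57, SE 0.09), Dpysl4 (-0.56, SE 0.06), Stmn3 (-0.51, SE 0.06), Stmn4 (-0.41, SE 0.07) and Dpysl2 (-0.38, SE 0.11, adjusted p = 0.0363). Dpysl2 had the narrowest gap, with a highest P25 value of 5540 and a lowest P14 value of 5652. The 4 P25 libraries here are all of the first batch, and 3 of the 7 P14 libraries of the 2nd; with first-batch libraries alone (4 against 4) the 9 members passed as well, beside 19.5% of all genes, 10.2% lower. This set was chosen after seeing the data, and its median difference over the members was -0.57, beside 0.0051 for all genes.

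**Figure D2:**
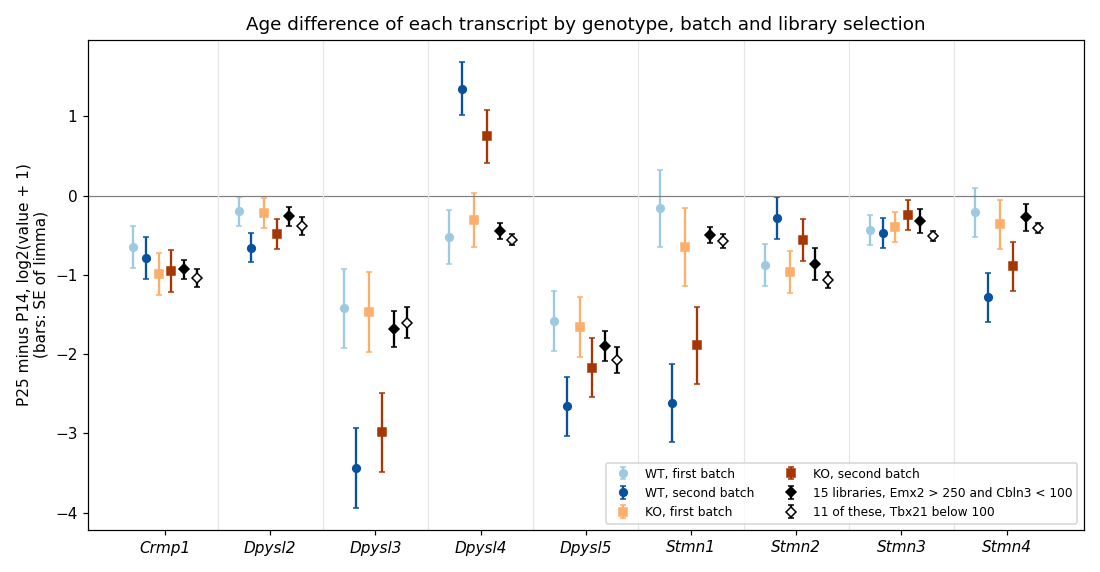
Difference of P25 minus P14 for each member in log2(value + 1), with bars of 1 SE of limma; coloured points are each genotype and batch (3 against 3 libraries), filled black diamonds the 15 forebrain-type libraries and open diamonds the 11 without bulb. All filled diamonds lie below 0, from -0.26 for Dpysl2 to -1.90 for Dpysl5. The points of Dpysl4 lie on both sides of 0, from -0.56 (open diamond) to 1.35.

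Over all 24 libraries, at the mean of both batches, 8 of 9 members were lower at P25 in WT, where 28.1% of all genes passed and 14.4% were lower. The exception was Dpysl4, with 0.41 (SE 0.25, adjusted p = 0.215). Dpysl3 (-2.43, SE 0.35) and Dpysl5 (-2.12, SE 0.26) again had the largest differences, followed by Stmn1 (-1.39, SE 0.35), Stmn4 (-0.75, SE 0.21), Crmp1 (-0.72, SE 0.18), Stmn2 (-0.58, SE 0.18), Stmn3 (-0.45, SE 0.13) and Dpysl2 (-0.43, SE 0.13). In KO, 5 of 9 were lower, beside 11.8% of all genes passing and 5.95% lower: Dpysl3 (-2.23, SE 0.35), Dpysl5 (-1.92, SE 0.26), Stmn1 (-1.27, SE 0.35), Crmp1 (-0.97, SE 0.18) and Stmn2 (-0.76, SE 0.18). Dpysl2 (-0.35), Stmn3 (-0.32), Stmn4 (-0.63) and Dpysl4 (0.22) did not pass in KO. Every P25 library lay below every P14 library for Dpysl3 and Dpysl5 in WT (2.51% of all genes) and for Dpysl3, Dpysl5 and Stmn2 in KO (1.51%). These contrasts set P25 groups with 3 WT and 2 KO cerebellum-rich libraries against P14 groups with none.

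Single libraries moved some of these calls. In WT, Stmn2 did not pass without P14 WT 1 (adjusted p = 0.0533), WT 2 (0.0525), WT 4 (0.0653) or P25 WT 3 (0.0519), nor Dpysl2 without P14 WT 4 (0.0508) or P25 WT 6 (0.0507), and Dpysl4 passed as higher without P25 KO 4 (0.0364). In KO, Stmn1 did not pass without P14 KO 2 (0.0759), KO 3 (0.0627), KO 5 (0.0552), P25 KO 2 (0.082), KO 5 (0.0732) or KO 6 (0.0718). Without P25 KO 4, the bulb-containing library, 8 members passed in KO, among them Dpysl4 as higher (0.52, adjusted p = 0.0133), and 8 also passed without P14 WT 5. The number of all genes that passed in KO moved too, from 2163 to 6861 without P25 KO 4 and to 3241 without P14 WT 5.

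Taken by batch, the age difference of several members was not the same. Each first-batch set of an age and genotype held 1 library that was neither forebrain-type nor cerebellum-rich. These were P14 WT 3, P14 KO 1, P25 WT 3 and P25 KO 2. As given above, all 9 members passed with the 8 first-batch forebrain-type libraries alone, genotypes together, beside 19.5% of all genes. With all first-batch libraries (3 against 3 of each genotype), 5 members in WT and 4 in KO had an unadjusted p under 0.05. After adjustment no member passed in WT or KO by limma, with 0.372% and 0.29% of all genes passing. By edgeR the count was 0 in both, and by DESeq2 it was 2 in WT (346 of all genes) and 3 in KO (383 of all genes). All 9 differences were negative in both genotypes, from -0.16 (Stmn1) to -1.59 (Dpysl5) in WT and from -0.22 (Dpysl2) to -1.66 (Dpysl5) in KO. Leaving out P25 KO 4 gave 2 members in each genotype (132 of all genes in WT and 121 in KO, against 68 and 53), and leaving out P14 WT 3 gave 2 in KO (63 of all genes). In the 2nd batch, the P25 WT libraries were all cerebellum-rich and the P14 WT libraries all forebrain-type. Age and brain region therefore cannot be told apart in that WT comparison. P25 KO 5 and KO 6 were cerebellum-rich too, against forebrain-type P14 KO libraries. In this batch 7 members passed in WT, where 44.4% of all genes did, 23.5% lower and 20.9% higher. Of these, Dpysl3 (-3.44), Dpysl5 (-2.66), Stmn1 (-2.62), Stmn4 (-1.29), Crmp1 (-0.78) and Dpysl2 (-0.66) were lower and Dpysl4 was higher (1.35, SE 0.34, adjusted p = 4.87e-03). In KO, 4 passed as lower (6.88% of all genes passed, 3.95% lower): Dpysl3 (-2.99), Dpysl5 (-2.17), Stmn1 (-1.89) and Crmp1 (-0.95). Crmp1 did not pass in 2nd-batch WT without P14 WT 4 (adjusted p = 0.115) or P25 WT 4 (0.0624), WT 5 (0.0543) or WT 6 (0.0527), nor Dpysl2 without P14 WT 4 (0.0554). The KO count was 0 without P14 KO 4, P25 KO 5 or P25 KO 6, it was 2 without P14 KO 5, P14 KO 6, P25 WT 2 or P25 WT 5, and it was 7 without P25 KO 4. Of all genes, 1257 passed there with every library, 8, 3 and 5 in the fits with a count of 0, 46 to 758 in those with a count of 2, and 6742 without P25 KO 4. Crmp1 in 2nd-batch KO (adjusted p = 0.0438) did not pass in 16 of the 24 fits that leave out a library.

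The difference between the batches was itself tested, as the mean over genotypes of the 2nd-batch age difference minus that of the first. It passed for 3 members, beside 18.9% of all genes, 9.92% with a negative and 8.93% with a positive difference: Stmn1 (-1.85, SE 0.49, adjusted p = 0.0233), Dpysl3 (-1.77, SE 0.50, adjusted p = 0.0271) and Dpysl4 (1.47, SE 0.34, adjusted p = 0.0201). Dpysl4 also passed without each library in turn, with an adjusted p of at most 0.0448. Stmn1 did not pass without P25 KO 5 (0.0528) or KO 6 (0.0515), nor Dpysl3 without these (0.0591 and 0.0589), P14 KO 1 (0.0536), P14 WT 3 (0.0515) or P25 KO 1 (0.0544). Without P25 KO 4, 5 members passed, beside 6697 of all genes against 3444. All 5 cerebellum-rich libraries are P25 libraries of the 2nd batch, so the batch and the brain regions in these libraries cannot be told apart.

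The 5 cerebellum-rich libraries had a pattern of their own within both families. Dpysl4 was at 10952 in P25 WT 4, 10691 in WT 5, 8161 in WT 6, 10414 in KO 5 and 9426 in KO 6, above each of the 12 P14 and 7 other P25 libraries. Dpysl3 was at 851 in WT 4, 912 in WT 5, 869 in WT 6, 836 in KO 5 and 851 in KO 6, below all others. Stmn1 was at 3260, 3558, 3442, 3737 and 3613 in the same order, also below all others. Stmn4 was at 2918, 3456, 2612, 3509 and 3317, again the lowest values of the series. Stmn2, by contrast, was at 18263 to 22837, above the 13032 to 16996 of the 5 P25 forebrain-type libraries, and Crmp1 at 7887 to 9270 lay within the 7594 to 10508 of those libraries. Dpysl5 was at 1297 to 1528, below their 1611 to 4363. No test was made between these sets, since they were told apart by markers of region and, for all but 1 of the P25 forebrain-type libraries, differ in batch.

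**Figure D3:**
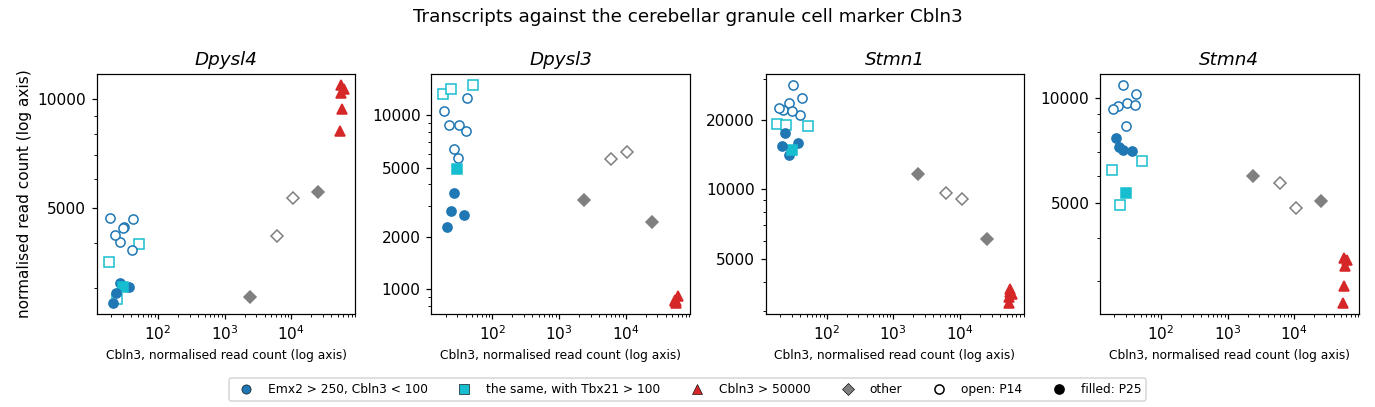
Normalised read counts of Dpysl4, Dpysl3, Stmn1 and Stmn4 against Cbln3 in each of the 24 libraries, both axes logarithmic; open symbols are P14, filled symbols P25, with colours and shapes for the kind of library. The 5 cerebellum-rich libraries, at Cbln3 of 54064 to 61110, sit highest for Dpysl4 and lowest for Dpysl3, Stmn1 and Stmn4.

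In each of the 4 libraries with intermediate Cbln3, Stmn1 lay between the forebrain-type libraries of its age and the cerebellum-rich ones, as the plot against Cbln3 shows. At P14, Stmn1 was at 9701 in WT 3 and 9093 in KO 1, below the 18822 to 28151 of the forebrain-type libraries of that age. At P25 it was at 11616 in WT 3 and 6094 in KO 2. Dpysl4 was at 5316 in P14 KO 1 and 5534 in P25 KO 2, the libraries with Cbln3 at 10664 and 25148, and at 4174 in P14 WT 3 and 2834 in P25 WT 3, within the forebrain-type range of their age. Dpysl3, at 6152 in P14 KO 1, 3273 in P25 WT 3 and 2434 in P25 KO 2, was also within that range. In P14 WT 3 it was at 5614, just below the 5682 to 14940 of the P14 forebrain-type libraries. Mbp, a myelin protein, was at 260051 in P14 KO 1 and 430484 in P14 WT 3, against 21520 to 99486 in the P14 forebrain-type libraries; its part in the low Stmn1 values was not tested.

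Levels can be set beside each other across genes only per length, here as normalised read count per kilobase of summed exon length, which overstates the transcript length of genes with several isoforms. On that scale the stathmins stood above the CRMPs in the means of the forebrain-type libraries. This did not hold in every cerebellum-rich library: in P25 WT 4, Dpysl4 at 1831 lay above Stmn1 at 1696 and Stmn4 at 1523. In P14 forebrain-type libraries the order was Stmn3 at 17069 ± 3371 (SD, n = 10), Stmn1 at 11461 ± 1517, Stmn2 at 5072 ± 1370 and Stmn4 at 4449 ± 1016, then Crmp1 at 2257 ± 409, Dpysl3 at 1564 ± 497, Dpysl2 at 1360 ± 238, Dpysl5 at 1189 ± 217 and Dpysl4 at 679 ± 96. Stmn2 and Stmn4 differed by less than their SD, as did Dpysl3, Dpysl2 and Dpysl5 from neighbour to neighbour. At P25 Dpysl2, at 1123 ± 86 (SD, n = 5), was level with Crmp1 at 1194 ± 172, and Dpysl4 at 496 ± 24, Dpysl3 at 491 ± 157 and Dpysl5 at 342 ± 150 formed the lower end. Among the stathmins of that age, Stmn3 at 13353 ± 696 and Stmn1 at 8096 ± 685 came first, and Stmn4 at 3594 ± 465.8 stood above Stmn2 at 2696 ± 278.

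The makeup of each family, as a member's share of the family sum per kilobase, moved with age and with the kind of library. Among forebrain-type libraries, Dpysl2 made up 19.4% ± 3.1 (SD, n = 10) of the CRMP sum at P14 and 31.1% ± 3.0 (SD, n = 5) at P25, while Dpysl5 went from 16.8% ± 1.1 to 9.1% ± 2.5 and Dpysl3 from 22.0% ± 6.1 to 13.2% ± 2.2. The share of Crmp1 was 32.0% ± 3.0 at P14 and 32.8% ± 2.4 at P25. In the cerebellum-rich libraries Dpysl4 made up 40.9% ± 2.2 (SD, n = 5) of the CRMP sum, against 13.8% ± 1.5 in P25 forebrain-type libraries. Within the stathmins, Stmn3 made up 44.7% ± 2.0 at P14 and 48.2% ± 2.2 at P25 in forebrain-type libraries, and 63.2% ± 1.3 in cerebellum-rich ones, where Stmn1 held 9.7% ± 0.7 against 29.2% ± 1.9.

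**Figure D4:**
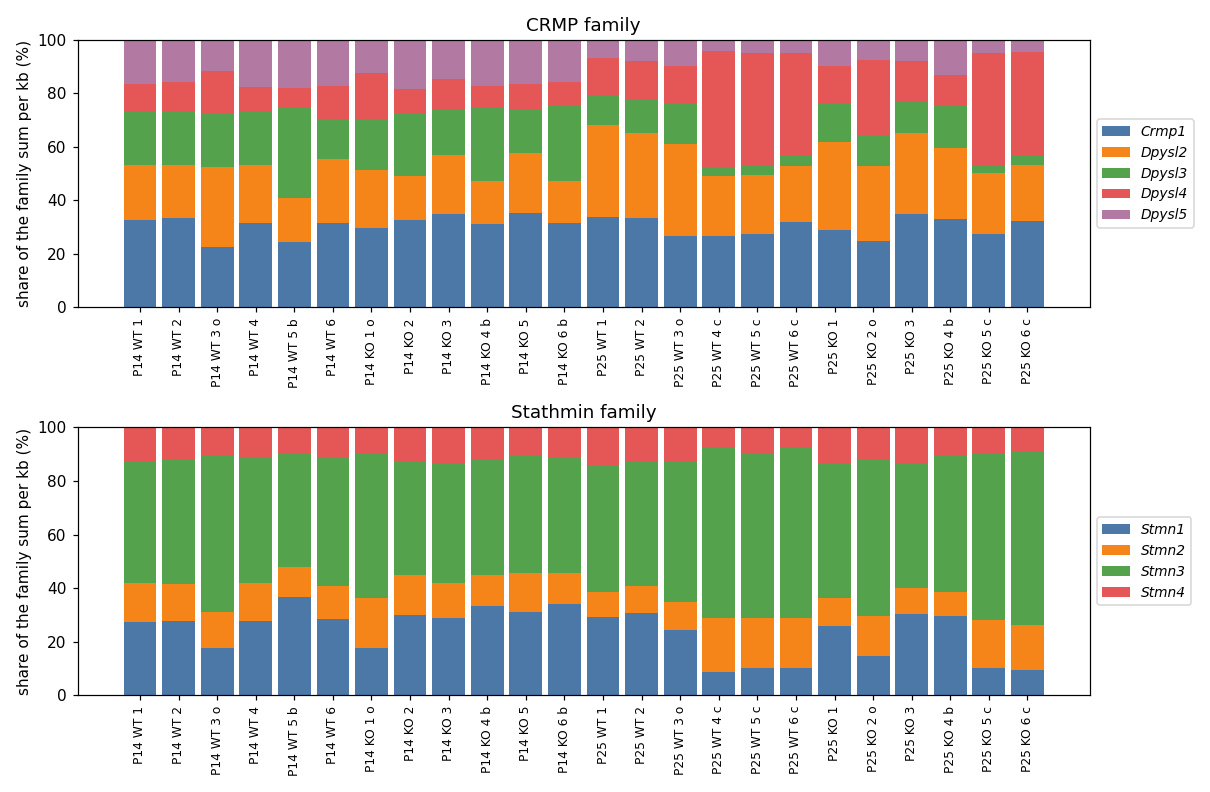
Share of each member in the sum of its family per kilobase of exon, in percent, for each of the 24 libraries; the letter after a library's name is b for bulb-containing, c for cerebellum-rich and o for the remaining 4, and no letter marks the other forebrain-type libraries. The Dpysl4 segment averages 40.9% in the 5 c libraries and 13.8% in the 5 P25 forebrain-type libraries.

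Promoter windows from RefSeq on GRCm38.p6 were matched for 3 members, Crmp1, Dpysl5 and Stmn3. The 250 bases before the annotated start are printed for Dpysl5, the member with the largest fall, and for Stmn3, a member with a small difference, to show how unlike their base composition is; CG dinucleotides are in capitals. The Dpysl5 stretch is chr5:30711314-30711563 on the plus strand and the Stmn3 stretch chr2:181314501-181314750 on the minus strand, each 5′ to 3′ along its gene.
Dpysl5: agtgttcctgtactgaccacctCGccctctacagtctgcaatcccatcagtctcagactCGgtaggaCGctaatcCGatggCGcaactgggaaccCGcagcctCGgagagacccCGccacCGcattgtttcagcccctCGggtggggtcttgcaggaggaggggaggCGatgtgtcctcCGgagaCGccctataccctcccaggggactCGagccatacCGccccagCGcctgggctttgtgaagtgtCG
Stmn3: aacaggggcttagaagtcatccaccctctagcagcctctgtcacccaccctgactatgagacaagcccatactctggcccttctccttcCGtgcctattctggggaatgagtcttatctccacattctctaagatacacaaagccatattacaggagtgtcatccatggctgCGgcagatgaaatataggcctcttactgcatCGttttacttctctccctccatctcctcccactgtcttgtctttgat
The Dpysl5 stretch held 17 CG dinucleotides and was 62.8% G or C, and the Stmn3 stretch held 3 and was 48.8% G or C. Over all 32851 windows the medians for the same 250 bases were 6 and 52.4%. At least 17 CG dinucleotides were held by 23.5% of the windows, and at most 3 by 37.8%. Crmp1 has 2 windows, of 75.6% and 59.6% G or C, with 30 and 16 CG dinucleotides. Gene-level counts add up the transcripts of both starts. A link between base composition and the age difference was not tested. The 2 arms of the RE1 element, which the repressor REST binds to silence neuronal genes in other cells, were searched on both strands of the 300-base windows as TTCAGCACC for the left arm and as the RE1 right arm. Neither was found in the 4 windows of these members (0.371% and 0.137% of all windows hold them), which says only that these letters are not in them. The letters GGGCGG, the core of the Sp1 binding motif and a later choice, occurred 1 time in the Dpysl5 window, 5 and 2 times in the Crmp1 windows and 0 times in the Stmn3 window, and in 35.7% of all windows.

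Between genotypes no member passed at either age, in 6 KO against 6 WT libraries. At P14 the differences of KO minus WT ran from -0.09 (Stmn3, SE 0.13) to 0.34 (Crmp1, SE 0.18), and at P25 from -0.10 (Stmn2, SE 0.18) to 0.42 (Dpysl3, SE 0.35). The age difference in KO minus that in WT ran from -0.25 (Crmp1, SE 0.26) to 0.21 (Dpysl5, SE 0.36). By limma 0% of all genes passed in these 3 comparisons, and no member had an unadjusted p under 0.05. No member passed by edgeR or DESeq2 either, which called 0 and at most 4 genes. Crmp1 was at 6813 to 18182 with a median of 13649 in P14 WT and at 10432 to 20120 with a median of 16887 in P14 KO, and the groups overlapped. Dpysl3 was at 851 to 3273 with a median of 1590 in P25 WT and at 836 to 4898 with a median of 2558 in P25 KO, also with overlap. The 4898 was that of the bulb-containing P25 KO 4, while the P25 WT libraries of the same batch were all cerebellum-rich. With 1 library left out, the P25 difference of Dpysl3 ran from 0.0055 to 0.57. Within the 15 forebrain-type libraries no member passed either, and 1 gene did (0.00547%). Crmp1 was the member nearest to passing there, at 0.25 for KO minus WT (SE 0.11, limma adjusted p = 0.998). The SE was 0.35 for Dpysl3 and for Stmn1 over all 24 libraries, the widest of the members.

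The genes around these families were read from lists, with members left out, in the age comparison of the 15 forebrain-type libraries, where 3.04% of all genes were lower and 2.57% higher. Of 16 tubulins, the proteins that both families bind, 5 were lower and none higher, with a median of -0.25: Tuba1a (-0.92, adjusted p = 2.38e-04), Tubb3 (-0.74, adjusted p = 1.25e-03) and Tubb5 (-0.68, adjusted p = 2.51e-03), and, named after their values were seen, Tubb2b (-1.16, adjusted p = 3.26e-03) and Tubb2a (-0.76, adjusted p = 0.0301). Tuba1a went from a mean of 62322 to 33225. Tuba1a, Tubb3 and Tubb2b are isotypes known from developing neurons. Tubb4a (0.13) and Tuba4a (0.14), isotypes of mature brain, did not pass and were named after their values were seen.

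Of 19 genes that carry the semaphorin 3A signal to CRMPs, 1 passed: the kinase Fyn was lower (-0.37, adjusted p = 0.0283). The ligand Sema3a (-0.07), the receptors Nrp1 (-0.29) and Plxna1 (-0.45) and the kinase Cdk5 (0.01) did not, and these 4 were named for their roles after their values were seen. Fyn was also the 1 gene that passed among 23 kinases of CRMPs and stathmins, of which 22 did not; the median of that list was -0.04. Of 17 partners and cargo adaptors of CRMPs, 2 were higher, the kinesin heavy chains Kif5b (0.53, adjusted p = 8.39e-03) and Kif5a (0.96, adjusted p = 0.0326), motors on which Dpysl2 is known to carry tubulin.

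Among 31 other microtubule-associated proteins, 3 were lower, the plus-end protein Mapre1 (-0.57, adjusted p = 1.18e-03), the severing enzyme Spast (-0.29, adjusted p = 0.0122) and the minus-end protein Camsap3 (-0.30, adjusted p = 0.0271), and Map7 was higher (0.60, adjusted p = 0.0187). Camsap3 lies outside the rule for named genes and was named after its value was seen. Among 19 growth cone proteins, 5 were lower and 1 higher: the first 3 by p were Marcksl1 (-1.39, adjusted p = 3.01e-05), Ncam1 (-0.52, adjusted p = 1.51e-03) and Tmsb10 (-0.58, adjusted p = 6.59e-03), with Marcks (-0.47), Gap43 (-0.75) and the higher Cntn2 (0.62) named after their values were seen. Without the bulb-containing libraries, where 11% of all genes were lower and 19.6% passed, 13 of these 19 were lower and 1 higher, as were 8 and 1 of the tubulins, 12 and 1 of the other microtubule proteins 6 and 0 of the semaphorin list, 6 and 2 of the kinases and 4 and 2 of the partners.

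Markers of other cells moved with age in the same libraries. Of 16 oligodendrocyte genes, 10 were higher and none lower, with a median of 1.5; Mal was the first of them by p (2.40, adjusted p = 3.53e-03). The summed level of that list was 54509 to 252480 at P14 and 131707 to 558436 at P25. Of 16 genes of immature neurons, 2 were lower, Cd24a (-1.86, adjusted p = 3.27e-04) and Tubb3, with a summed level of 41047 to 92829 at P14 and 30490 to 56852 at P25; Dcx did not pass (-1.10, adjusted p = 0.282). Of 17 genes of dividing cells, in which Stmn1 is also made, 1 was lower (Rrm2, -0.94, adjusted p = 0.0458), with sums of 3024 to 11133 and 2529 to 3472. Of 18 genes of mature neurons, 1 was higher (Eno2, 0.45, adjusted p = 0.0332), with sums of 231456 to 638059 and 444574 to 559388. Of 12 oligodendrocyte precursor genes 3 were lower, and of 14 astrocyte genes 2 were higher. None of 17 olfactory bulb genes (sums of 8710 to 110867 and 9789 to 63280), 17 cerebellar granule cell genes (15739 to 37414 and 15258 to 25330) or 15 tested cortical genes (53324 to 240444 and 93067 to 161811) passed. The cortical list holds Emx2 and the granule cell list Cbln3, by which these libraries were chosen, so nothing is read from the counts of those 2 lists. Without the bulb-containing libraries 7 of 17 genes of dividing cells, 4 of 16 of immature neurons, 5 of 12 of oligodendrocyte precursors, 2 of 15 cortical and 2 of 17 granule cell genes were lower. In that set 4 of 18 genes of mature neurons were lower and 3 higher, 11 of 16 oligodendrocyte genes were higher, and 1 of 14 astrocyte genes was lower and 2 higher. The part of these cell types in the falls of the members was not tested.

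Across libraries the members did not move as 1 block. The Pearson correlations that follow are of log2(value + 1), and they describe libraries that share age, batch and region. Over the 24 libraries Dpysl3 and Dpysl5 had r = 0.94, and over the 15 forebrain-type libraries r = 0.95. Stmn1 and Stmn4 had 0.93 over 24 and 0.69 over 15. Dpysl4 and Stmn1 had -0.81 over 24 and 0.83 over 15, so the sign of that pair differed with the cerebellum-rich and intermediate libraries in or out. Dpysl3 and Stmn4 had 0.75 over 24 and 0.05 over 15.

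The 3 genes with the highest r to each member over the 24 libraries, among all genes tested, were as follows, and such values describe these libraries only. For the CRMPs they were Prmt5 (0.95), Xpnpep1 and Rnf2 with Crmp1, Actr1a (0.93), Scfd2 and Cs with Dpysl2, Ctnnbip1 (0.97), Eef1a1 and Tubb3 with Dpysl3, Srgap2 (0.97), Rnf19b and Mtch2 with Dpysl4, and Sdc3 (0.97), Ncam1 and Efna2 with Dpysl5. For the stathmins they were Cwh43 (0.99), Ttll1 and Prkar2b with Stmn1, Deaf1 (0.92), Tm7sf2 and Pdhx with Stmn2, Mif (0.94), Ifngr2 and Atp5g1 with Stmn3, and Mllt11 (0.97), Ndufaf7 and Cfl1 with Stmn4. Of the genes named here, Ncam1 (with Dpysl5) and Cfl1 (with Stmn4) are on the growth cone list and Tubb3 (with Dpysl3) on the tubulin list. Whether list genes were more frequent among nearest genes than among all genes was not tested.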

How the data were processed

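Libraries came from the TruSeq RNA v2 kit, per the labels' protocols. Trimmomatic 0.35, TopHat2 2.1.0, HTSeq, DESeq2 and build GRCm38 are named in the submitters' processing notes. The annotation, the strand setting and the versions of HTSeq and DESeq2 were not given in the sources used here. Reads of a gene and an antisense partner therefore cannot be told apart. The table deposited by the authors holds a signal: each library's reads per gene over its size factor (0.825 to 1.22), as read from the values, of which 100% became whole within 0.01 after rescaling. It has 46078 genes and 24 sample columns, with 0 unused; 45143 genes (98.0%) matched a symbol in GENCODE M21, which also gave positions and exon lengths.

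Because values were normalised, the test was limma 3.58.1 (R 4.3.3) with a trend on log2(value + 1), for genes with a mean of at least 10. A fold on this scale understates the change of low genes. All 24 libraries were fitted with group means and a batch term within each age (18 residual degrees of freedom) or with a mean per group and batch (16), and the 15 forebrain-type libraries with age and genotype (12). P-values were adjusted by Benjamini-Hochberg over all genes with a threshold of 0.05 and measure the spread between these libraries. Alternatives were edgeR 4.0.16 and DESeq2 1.42.0 on whole reads, TMM scaling, no filter, pseudocounts of 0.1 and 5, no batch term, a replicate block, each batch alone, other marker limits, and each library left out; the set without bulb and a block by label prefix were added after seeing the data. Members, lists and markers were chosen with earlier results of these data known. The genes to name were all 9 members, their 3 nearest genes by correlation and up to 3 genes per list with the smallest p. Reference proteins were not analysed here.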

Additional observations from a re-analysis of the deposited data

Results flagged for a closer look

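The values were looked at in 63 sets of 5, 6 or 10 libraries, and some sets share libraries. Of these sets, 7 held a library that stood apart from the rest by Dixon's criterion at 95%, which chance alone meets in about 1 in 20 sets. Crmp1 was lowest in P25 WT 3, at 6242 (7611 to 8174 in the other 5 P25 WT libraries), a library with Gh at 72845. It was highest in P25 KO 4, at 10508, among the P25 forebrain-type libraries (7594 to 8364 in the others), and Stmn4 was lowest in that bulb-containing library, at 5356 (7041 to 7690). Crmp1 was highest in P25 KO 6, at 9270, among the cerebellum-rich libraries (7887 to 8174), and Stmn2 was highest there in P25 WT 4, at 22837 (18263 to 19343). Stmn1 was lowest in P14 WT 3, at 9701 (19021 to 22476 in the other P14 WT libraries), the library with Mbp at 430484. Stmn3 was lowest in P14 WT 5, at 13021 (19208 to 22337), a bulb-containing library.

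The age difference of 3 members differed between the batches when that difference was tested with limma: Dpysl3 by -1.77, Stmn1 by -1.85 and Dpysl4 by 1.47 on the log2 scale.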

How the results depend on the processing

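For KO against WT at each age and the difference of age effects, only the members at the 2 ends of each range were counted here. Sign changes of the other members in those comparisons are neither counted nor named. Of 615 single-gene values under other settings than leaving out a library, 549 kept their direction and side of the threshold. Of the rest, 40 were no longer past it, 21 came past it and 5 changed sign. Of 1791 with a library left out these numbers were 1691, 59, 28 and 13. The 5 were Dpysl4 with age in the first batch alone (WT -0.53, KO -0.31), Stmn2 with KO at P25 (0.082) and Dpysl5 in the difference of age effects (-0.073) in the first batch alone, and Crmp1 in the batch difference with edgeR (0.016). With a library left out, values spanned 0 for the batch difference of Crmp1 (-0.15 to 0.14) and Stmn3 (-0.074 to 0.17), Stmn1 with age in first-batch WT (-0.54 to 0.044), Stmn2 with KO at P25 (-0.14 to 0.0020) and Dpysl5 in the difference of age effects (-0.051 to 0.37). The number of members past the threshold moved over 1.5 times as follows. For age in WT it was 8, and 5 with no batch term (1649 genes in all, against 5134) and 0 in the first batch alone (46). For age in KO it was 5, and 8 with DESeq2 (3374 genes against 2163), 0 in the first batch alone (36) and 0 in the 2nd alone (0 genes). In the first batch it was 0, and with DESeq2 2 in WT (346 genes against 68) and 3 in KO (383 against 53). In 2nd-batch KO it was 4, and 2 with no filter (144 genes against 1257). In forebrain-type libraries it was 6, and 1 with WT alone (1 gene against 1025) and 0 with KO alone (5). Leaving out each library gave 6 to 9 members for age in WT, 4 to 8 in KO, 0 to 2 in first-batch WT and 0 to 2 in first-batch KO. It gave 5 to 8 in 2nd-batch WT, 0 to 7 in 2nd-batch KO and 1 to 5 for the batch difference. In forebrain-type libraries it gave 4 to 6, and in the KO comparisons 0 to 0. The number of all genes passing moved in such fits too. For age in KO, 6861 genes passed without P25 KO 4. In 2nd-batch KO the number was 3 without P25 KO 5 and 6742 without P25 KO 4. For the batch difference it was 952 without P25 KO 5 and 6697 without P25 KO 4. Genes in all also moved for age in KO with no batch term (444) and no filter (1311), 2nd-batch KO with DESeq2 (2782), the batch difference with no filter (2272 against 3444), and forebrain-type libraries with DESeq2 (1917), no filter (653), the first batch alone (3554) and no bulb-containing libraries (3573); leaving out P14 WT 5 gave 1989 genes and P25 WT 1 gave 388. The replicate block gave 8 members in WT (4084 genes in all, against 5134) and 4 in KO (1453 against 2163). Stmn1 did not pass in KO with that block (limma adjusted p = 0.0512). Of 36 correlations of same-numbered libraries, 8 were over 0.1 (range -0.77 to 0.72), and 1 of 12 for KO and WT of the same age. Same-numbered KO and WT libraries of an age share a prefix in the labels, whose meaning is not given; a replicate block by its 11 prefixes, chosen after seeing the data, gave 0 members in the KO comparisons, with a smallest adjusted p of 0.99989. Emx2 above 100 with Cbln3 below 1000 chose the same 15 libraries.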
